A study of Mus musculus with 15 samples.

Results

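The regulators of the primitive streak and nascent mesoderm described here are 10 genes of the 45232 in the table: T, Mixl1, Eomes, Mesp1, Mesp2, Lhx1, Evx1, Tbx6, Snai1 and Msgn1. They were found by name, through the GENCODE symbol of the Ensembl identifier; the rule uses no measured value, though the list was drawn up with earlier results of these data known. All 10 encode transcription factors, and all 10 passed the filter on low values. RNA was measured in 15 single mouse embryos at embryonic day 7.5. There were 3 wild-type embryos and 12 Apela null embryos, 6 of the mutant strain NEO-IN and 6 of the mutant strain NEO-OUT. Apela encodes a small secreted peptide ligand of the apelin receptor. All groups shared a mixed C57Bl6/CD-1 background, were matched in stage by morphology, and were collected whole, with the extraembryonic tissues left on. The null embryos came from crosses between homozygous null parents and were not genotyped one by one. The labels do not say which embryos shared a litter or a batch, so p-values measure the spread between these embryos, and litter and genotype cannot be told apart.

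The primitive streak is the site at the posterior of the embryo where epiblast cells leave the epithelium and become mesoderm and definitive endoderm. Nodal, Wnt3 and Bmp4 signals induce it, and T, Eomes and Mixl1 are among the first genes switched on in it. Cells that leave the streak then turn on regulators of their own: Mesp1 in cardiac and cranial mesoderm, Tbx6, Msgn1 and Mesp2 in paraxial mesoderm, and Lhx1 in anterior and lateral mesoderm. Snai1 represses the gene for E-cadherin and is needed for cells to lose their epithelial shape.

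Depth ran from 48.8 to 61.3 M recovered reads per library, with 20427 to 21059 genes detected. Apela, on chromosome 8 of GRCm38, had 1663 ± 505 (SD, n = 3) normalized counts in wild-type embryos, 11.5 ± 7.24 (SD, n = 6) for NEO-IN against 69.6 ± 21.6 (SD, n = 6) for NEO-OUT, with every null embryo below every wild-type embryo. A normalized count is a gene's read count divided by a size factor for its library. None of the 3 wild-type libraries held more than 2 reads of 4 Y-linked genes, while 3 of 6 NEO-IN libraries (1, 2 and 3) and 2 of 6 NEO-OUT libraries (9 and 12) held at least 7843. Sex is therefore unequal between the groups, and results that matter are also given for the embryos without Y-linked reads. The score of 8 trophoblast marker genes, the mean log2 level centred over all libraries, ran from -0.58 to -0.42 in wild-type, from -0.49 to 1.07 in NEO-IN and from -0.10 to 0.22 in NEO-OUT. Of the 9 trophoblast markers, Tpbpa was at 0 in 14 libraries and is not in the score. Prl3d1 was at 0 in 7 libraries, reached 276 normalized counts, and is in the score. The score did not follow the summed normalized counts of the 9 markers. NEO-IN 6 had the highest score, 1.07, at a sum of 18190, against 0.60 at 22923 in NEO-IN 2. How far Prl3d1 alone moves the score was not tested. In whole embryos, fewer cells of a type and less RNA per cell cannot be told apart.

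Promoter sequence is shown for 4 of the genes: Eomes, the only regulator called in a comparison, and T, Tbx6 and Msgn1, which reached their highest (T) or lowest level of all embryos in the embryo NEO-OUT 10. They were picked for display after their values were seen. RefSeq promoters were matched for 9 of the 10 genes, Mixl1 being the one without an entry. Each run ends just upstream of the gene's start and is given on the gene's own strand, 5′ to 3′, from GRCm38.p6. T covers chr17:8434173-8434422 on the plus strand, Eomes chr9:118477939-118478188 on the plus strand, Tbx6 chr7:126781233-126781482 on the plus strand and Msgn1 chr12:11208973-11209198 on the minus strand. Capitals mark matches to the motifs searched.
T: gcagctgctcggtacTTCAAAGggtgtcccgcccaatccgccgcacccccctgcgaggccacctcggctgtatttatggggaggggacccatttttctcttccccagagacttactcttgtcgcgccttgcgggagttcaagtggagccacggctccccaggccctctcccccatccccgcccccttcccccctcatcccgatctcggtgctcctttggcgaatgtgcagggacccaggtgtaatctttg
Eomes: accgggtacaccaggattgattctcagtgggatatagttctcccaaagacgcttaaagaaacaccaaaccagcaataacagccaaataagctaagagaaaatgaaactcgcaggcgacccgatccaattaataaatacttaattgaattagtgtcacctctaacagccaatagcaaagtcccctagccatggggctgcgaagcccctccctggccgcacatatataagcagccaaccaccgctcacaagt
Tbx6: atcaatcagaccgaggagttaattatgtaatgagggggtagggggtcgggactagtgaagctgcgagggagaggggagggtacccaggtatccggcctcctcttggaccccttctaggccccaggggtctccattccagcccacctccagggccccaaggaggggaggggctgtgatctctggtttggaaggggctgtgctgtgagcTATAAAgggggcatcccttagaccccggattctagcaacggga
Msgn1: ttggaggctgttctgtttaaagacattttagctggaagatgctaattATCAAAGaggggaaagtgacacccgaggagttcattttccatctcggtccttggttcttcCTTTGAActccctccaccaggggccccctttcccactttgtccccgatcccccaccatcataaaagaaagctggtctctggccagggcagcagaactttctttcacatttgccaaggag

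Each motif was searched on both strands, and no matches overlapped. The motifs were chosen after the values were known, and the second TCF/LEF form was added after the promoters had been read. The first TCF/LEF form, CTTTGAT, was found among the 9 promoters only in Msgn1, and occurs in 3.21% of 32851 RefSeq promoters. The second TCF/LEF form, CTTTGAA, was found in Msgn1 and T, and occurs in 4.46% of them. The core promoter box TATAAA was found in Tbx6, and occurs in 12.4%. The T-box half-site AGGTGTG was found in Evx1, and occurs in 5.10%. The SMAD box CAGACA was also found in Evx1, and occurs in 17.1%. Eomes, Mesp1, Mesp2, Lhx1 and Snai1 held none of these letters in the window, which for Mesp1 was only 52 bases. These matches describe the sequence only.

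Per length, T was the most abundant of the regulators and Mesp2 the least. In wild-type embryos the mean level per kb of exon was 3891 ± 296 (SD, n = 3) normalized counts for T and 69.2 ± 29.3 (SD, n = 3) for Mesp2. T stood above 95.3% of the 14482 protein-coding genes tested, and Mesp2 above 28.6%. Between them came Msgn1 at 2172, Tbx6 at 1224, Snai1 at 1203, Mixl1 at 740 and Eomes at 654. Evx1 followed at 449, Mesp1 at 434 and Lhx1 at 249.98, all per kb of exon. The neighbours Tbx6 and Snai1, Mixl1 and Eomes, and Evx1 and Mesp1 overlapped in their wild-type ranges, so their order is not resolved. The place of Msgn1 rests on a gene model of 613 bases. Exons of Evx1 overlap the antisense gene Evx1os, which had 503 to 871 normalized counts, and exons of Eomes overlap the antisense gene Gm33460. The library kit keeps strand, but whether the authors counted by strand is not given in the sources used here, so values of Evx1 and Eomes may include antisense reads.

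**Figure D1:**
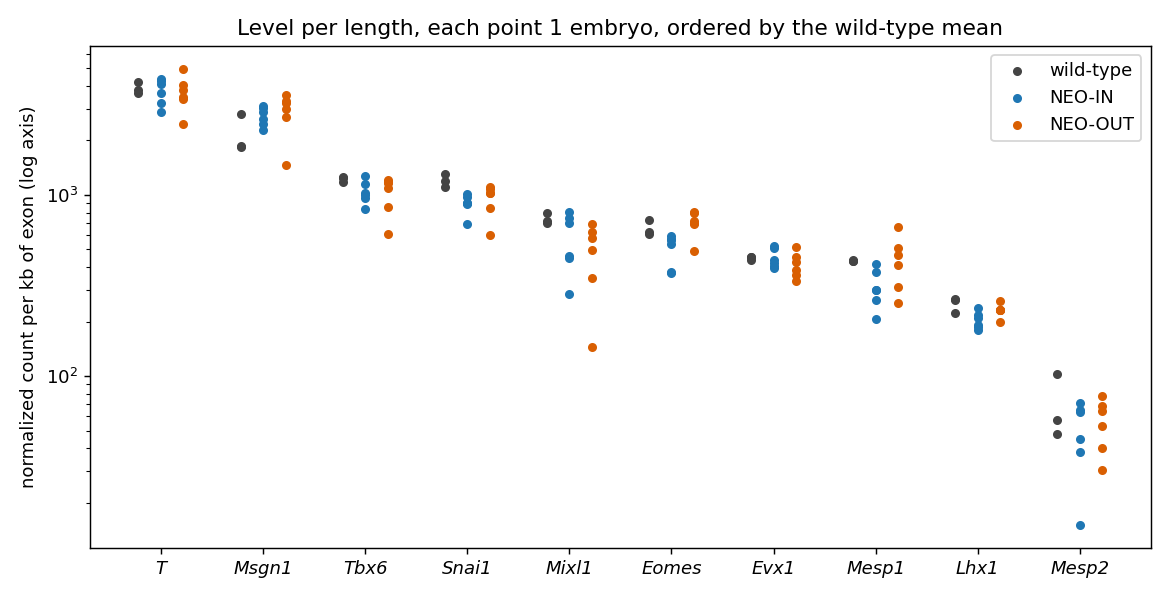
Normalized count per kb of exon (log axis) of the 10 regulators, ordered by the wild-type mean, with each point 1 embryo. T lies at the top at a wild-type mean of 3891 and Mesp2 at the bottom at 69.2, and within most genes the null strains spread more widely than wild-type.

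None of the 10 regulators was called in either null strain against wild-type, nor in the mean of both strains (0 of 10 in each). A gene was called at a Benjamini-Hochberg (BH) adjusted p under 0.05 from limma over 16430 genes. The background was 2.83% of all genes called for Apela KO versus wild-type, 2.98% for the NEO-IN strain and 6.35% for the NEO-OUT strain. The 3 comparisons share the same wild-type embryos. At an unadjusted p under 0.05, 2, 4 and 1 of the 10 passed, against 18.5%, 18.0% and 22.8% of all genes. edgeR called none of the 10 in the 3 comparisons, and DESeq2 called 1, Lhx1 in NEO-IN (adjusted p = 0.0400). Log2 fold changes were below 0 for 9, 9 and 8 of the 10, with medians of -0.24, -0.35 and -0.13, against medians of all genes within 0.01 of 0. Of 8 trophoblast markers tested, 1 was called higher in NEO-IN versus wild-type (Rhox9) and 1 in NEO-OUT versus wild-type (Esrrb), with list median log2 fold changes of 0.40 and 0.42. Both calls ended without any 1 of the wild-type embryos. In Apela KO versus wild-type, 5 of the 10 log2 fold changes turned positive with the trophoblast score as a covariate. They were those of T, Mixl1, Eomes, Mesp2 and Evx1. All NEO-OUT scores lay above the wild-type range, and of NEO-IN only embryo 5 (-0.49) lay inside it. Score and genotype can therefore hardly be told apart in this fit, and the direction of these 5 is not settled. Of 7 parietal endoderm and 6 blood markers, 0 were called in any comparison. Of 4 decidua markers tested, Dio3 was called lower in NEO-IN versus wild-type (log2 fold change -0.60, limma BH-adjusted p = 0.0198) and none was called in NEO-OUT versus wild-type. This Dio3 call ended without any 1 of the wild-type embryos and among the embryos without Y-linked reads (limma BH-adjusted p = 0.0717). Between the strains, where 13.3% of all genes were called, Dio3 was lower (-0.48, limma BH-adjusted p = 0.00759) and Cryab higher (0.45, limma BH-adjusted p = 0.0438) in NEO-IN. The Dio3 call between the strains was kept in all 24 alternatives and that of Cryab in 9 of 24.

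**Figure D2:**
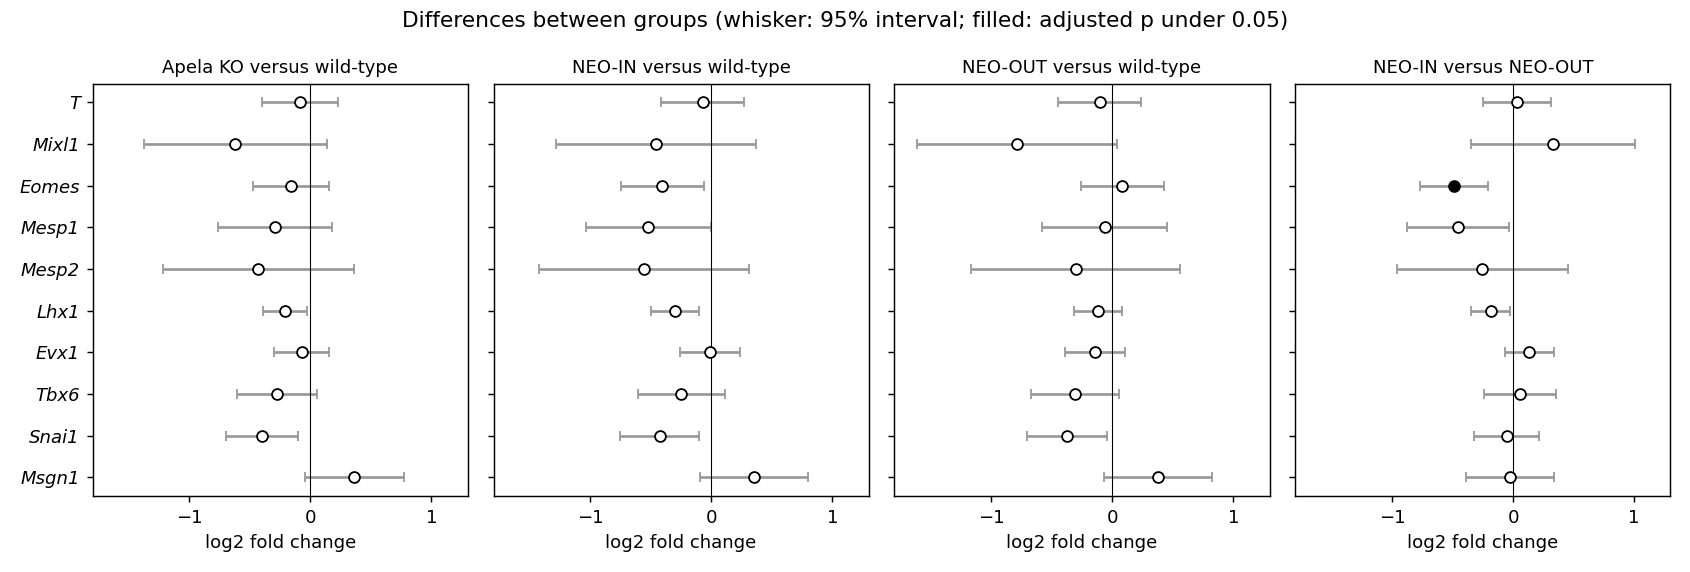
Log2 fold change of each regulator with its 95% interval from limma, for the comparisons of the design; filled points were called at an adjusted p under 0.05. Eomes in NEO-IN versus NEO-OUT, at -0.49, is the only filled point.

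Snai1 was the one regulator whose level lay below every wild-type embryo in all 12 null embryos. Wild-type embryos had 1798, 1924 and 2129 normalized counts of Snai1. NEO-IN ran from 1119 through a median of 1471 to 1649, and NEO-OUT from 973 through 1664 to 1786. The closest approach was NEO-OUT 8, just below wild-type 1. In Apela KO versus wild-type 1.7% of all genes had every null embryo below every wild-type embryo, and 1 of the 10 regulators did. Its log2 fold change was -0.40 (SE 0.14, 95% interval -0.70 to -0.10, limma BH-adjusted p = 0.143), 1.32-fold lower, which does not pass the test. Among the embryos without Y-linked reads it was -0.31 (limma BH-adjusted p = 0.0925), and it stayed negative in all 24 alternatives. Its lowest values, in NEO-OUT 9 and NEO-IN 1, came from embryos with Y-linked reads.

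None of the early streak genes T, Mixl1, Eomes and Evx1 was called against wild-type, and differences between them were not tested. T (Brachyury), which keeps mesoderm forming at the streak, had 8449, 8804 and 9772 normalized counts in wild-type. NEO-IN ran from 6622 through 8960 to 10077 and NEO-OUT from 5686 through 8434 to 11523, so that both null strains spanned the wild-type range. For T, the log2 fold change in Apela KO versus wild-type was -0.09 (SE 0.15, 95% interval -0.40 to 0.23, limma BH-adjusted p = 0.790).

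Mixl1, a paired-type homeobox gene needed for definitive endoderm and axial mesoderm, had 1615, 1653 and 1827 normalized counts in wild-type. NEO-IN ran from 654 through 1330 to 1836, and NEO-OUT from 330 through 1229 to 1595. All 6 NEO-OUT embryos lay below wild-type, as 6.74% of all genes did, while NEO-IN overlapped it. In NEO-OUT its log2 fold change was -0.78 (SE 0.39, 95% interval -1.61 to 0.04, limma BH-adjusted p = 0.244), not called. It was -0.47 without NEO-OUT 10 and -0.19 with the trophoblast covariate.

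Evx1, an even-skipped homeobox gene of the posterior streak, varied least between embryos of a group among these early genes, with a within-group SD of 0.19 on the log2 scale. Wild-type embryos had 1257, 1305 and 1315 normalized counts, NEO-IN 1140 to 1511 and NEO-OUT 959 to 1477. Its log2 fold change in NEO-IN versus wild-type was -0.01 (SE 0.12, 95% interval -0.26 to 0.24, limma BH-adjusted p = 0.983).

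Eomes, a T-box gene needed for mesoderm to leave the streak and for definitive endoderm, was the only regulator called in any comparison, with less in NEO-IN than NEO-OUT. Wild-type embryos had 2529, 2603 and 3024 normalized counts. NEO-IN ran from 1543 through a median of 2287 to 2459, below all wild-type embryos, and NEO-OUT from 2036 through 2960 to 3335. NEO-OUT 9, at 2036, was the one NEO-OUT embryo inside the NEO-IN range. The means were 2086 ± 418 (SD, n = 6) for NEO-IN against 2910 ± 472 (SD, n = 6) for NEO-OUT, 1.40-fold lower in NEO-IN. The log2 fold change was -0.49 (SE 0.13, limma BH-adjusted p = 0.0215), 1 of 10 regulators called against 13.3% of all genes in NEO-IN versus NEO-OUT. It was -0.59 (limma BH-adjusted p = 0.0162) among the embryos without Y-linked reads. The call ended without NEO-OUT 11 (limma BH-adjusted p = 0.0504), without NEO-OUT 12 (0.0503) and once the trophoblast score entered as a covariate (0.0546), and was kept in 21 of 24 alternatives.

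Eomes is also transcribed in extraembryonic ectoderm and visceral endoderm. Of 9 visceral endoderm markers tested, 4 were called lower in the NEO-IN strain than in the other (Apoa1, Ttr, Hnf4a and Trf), where 13.3% of all genes were called in either direction, and the list score ran from -0.20 to -0.05 in NEO-IN, from -0.05 to 0.30 in NEO-OUT and from -0.07 to -0.01 in wild-type. Ttr, a thyroid hormone carrier, was 27863 ± 2885 (SD, n = 6) for NEO-IN against 40592 ± 5251 (SD, n = 6) for NEO-OUT (log2 fold change -0.54, limma BH-adjusted p = 0.000473). Of 8 trophoblast markers tested, Esrrb was called lower in NEO-IN (log2 fold change -0.44, limma BH-adjusted p = 0.00227) and none was called higher, with a list median of -0.02. The part of these tissues in the Eomes difference was not tested. Against wild-type, the log2 fold change of Eomes was -0.40 in NEO-IN (SE 0.16, limma BH-adjusted p = 0.195; -0.20 with the trophoblast covariate) and 0.08 in NEO-OUT (SE 0.16, limma BH-adjusted p = 0.801).

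**Figure D3:**
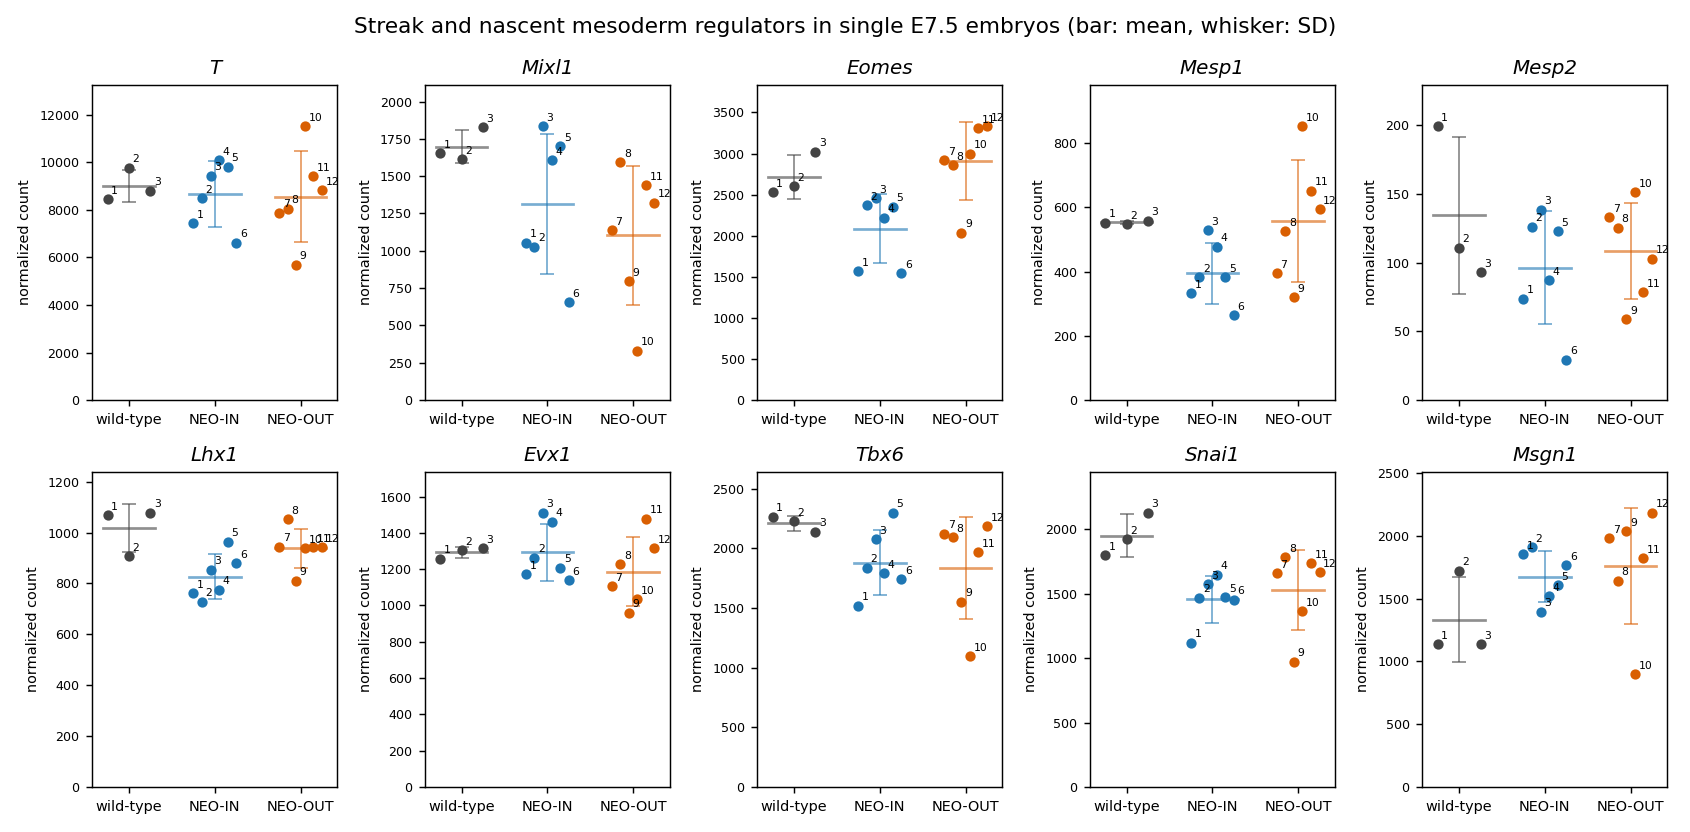
Normalized count of each of the 10 regulators in every embryo, by group, with each point 1 embryo. All 12 null embryos lie below the wild-type range for Snai1 (1798 to 2129), and the 6 NEO-IN embryos lie below wild-type for Eomes and Mesp1.

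Mesp1 and Mesp2 are neighbouring genes on chromosome 7 that encode basic helix-loop-helix factors. Mesp1, the earliest marker of cardiac progenitors, had 547, 553 and 559 normalized counts in wild-type, a coefficient of variation of 1.04%. These values rest on 532, 553 and 600 reads, and counting alone scatters more than that. The wild-type range of these 3 embryos may therefore be narrow by chance. NEO-IN ran from 265 through 383 to 528, below every wild-type embryo, and NEO-OUT from 321 through 559 to 853, on both sides of it. In NEO-IN 3 of the 10 regulators (Eomes, Mesp1 and Snai1) lay wholly below wild-type, against 5.39% of all genes. The log2 fold change of Mesp1 was -0.52 in NEO-IN (SE 0.24, 95% interval -1.04 to -0.01, limma BH-adjusted p = 0.273; -0.33 with the trophoblast covariate) and -0.06 in NEO-OUT (SE 0.24, limma BH-adjusted p = 0.909). In NEO-IN versus NEO-OUT it was -0.46 (SE 0.20, limma BH-adjusted p = 0.143). Leaving out 1 library gave -0.60 to -0.32, with limma BH-adjusted p from 0.0354 (without NEO-OUT 9) to 0.298. Leaving out NEO-OUT 9 was the only 1 of 24 alternatives in which Mesp1 was called. Among the embryos without Y-linked reads it was -0.68 (limma BH-adjusted p = 0.103).

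Mesp2, which acts when somites are set apart, was scarce. Wild-type embryos had 93.2, 111 and 199.5 normalized counts, NEO-IN 29.3 to 139 and NEO-OUT 58.7 to 151. The groups overlapped throughout, and its within-group SD of 0.67 on the log2 scale was the largest of the 10. Ripply2, a repressor that in mice is switched on by Mesp2, was 15.0 ± 10.3 (SD, n = 6) for NEO-IN against 49.3 ± 10.9 (SD, n = 6) for NEO-OUT. Ripply2 was lower in NEO-IN (log2 fold change -1.90, SE 0.42, limma BH-adjusted p = 0.00673), while Mesp2 was not called (-0.26, SE 0.33, limma BH-adjusted p = 0.666).

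Neither Tbx6 nor Msgn1, the regulators of presomitic mesoderm, was called against wild-type. Tbx6, a T-box gene that turns cells from a neural to a mesodermal fate, had 2138, 2225 and 2263 normalized counts in wild-type. NEO-IN ran from 1517 through 1815 to 2297 and NEO-OUT from 1096 through 2029 to 2187, and 10 of 12 null embryos lay below wild-type. Its log2 fold change in Apela KO versus wild-type was -0.28 (SE 0.16, 95% interval -0.61 to 0.05, limma BH-adjusted p = 0.368), and -0.0652 with the trophoblast covariate.

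Msgn1, the mesogenin gene of presomitic mesoderm, was the only regulator with a positive log2 fold change against wild-type in both strains, 0.35 in NEO-IN (SE 0.21, limma BH-adjusted p = 0.407) and 0.38 in NEO-OUT (SE 0.21, limma BH-adjusted p = 0.305), neither called, and 0.55 and 0.58 without wild-type 2. Wild-type embryos had 1135, 1137 and 1721 normalized counts, NEO-IN 1396 to 1910 and NEO-OUT 898 to 2184. NEO-OUT 10, at 898, was the lowest embryo of all, and the next NEO-OUT embryo had 1643. Without it the log2 fold change in NEO-OUT was 0.56 (limma BH-adjusted p = 0.0264), so the call changes with this 1 embryo. That was the only 1 of 24 alternatives in which Msgn1 was called in NEO-OUT. Among the embryos without Y-linked reads its log2 fold change in NEO-OUT was 0.22 (limma BH-adjusted p = 0.631).

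Lhx1, a LIM homeobox gene of the node, anterior mesendoderm and lateral mesoderm, varied least of the 10, with a within-group SD of 0.14 on the log2 scale. Wild-type embryos had 908, 1068 and 1078 normalized counts, NEO-IN ran from 729 through 814 to 964 and NEO-OUT from 811 through 943 to 1053. Of the 6 NEO-IN embryos, 5 lay below wild-type. In NEO-IN its log2 fold change was -0.30 (SE 0.09, 95% interval -0.50 to -0.10, limma BH-adjusted p = 0.0974) and did not pass.

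The regulators varied more between embryos of a group than most genes did. Their median within-group SD was 0.28 on the log2 scale (range 0.14 to 0.67), against a median of 0.12 over 13468 genes with a mean of at least 50 normalized counts. For 7 of the 10 (70%) the SD was larger in both null strains than in wild-type, as it was for 55.2% of all those genes. The wild-type SD rests on 3 embryos.

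NEO-OUT 10 stood apart. It had the highest T (11523) and Mesp1 (853) of all 15 embryos and the lowest Mixl1 (330), Tbx6 (1096) and Msgn1 (898). In the same embryo the score of 8 epiblast genes was the highest of all, at 0.27, while the scores of 11 paraxial mesoderm genes (-0.79), 12 cardiac and lateral mesoderm genes (-0.43) and 6 blood genes (-1.38) were the lowest. Its trophoblast score was 0.22. NEO-IN 6 had the lowest Eomes (1543), Mesp1 (265) and Mesp2 (29.3), and also the highest trophoblast score, 1.07. NEO-OUT 9 had the lowest T (5686), Evx1 (959) and Snai1 (973), together with the highest blood score, 1.34, and the lowest epiblast score, -0.27. The part of stage or tissue content in these differences was not tested.

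**Figure D4:**
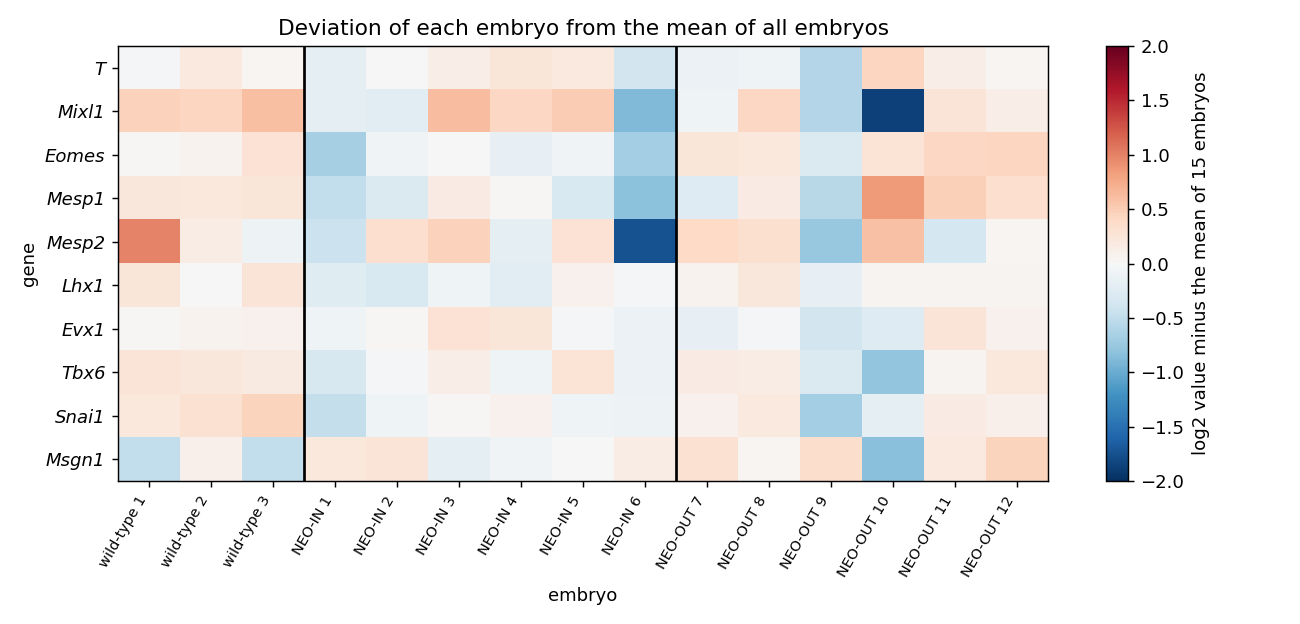
Deviation of each regulator in each embryo from its mean over the 15 embryos, on the log2 scale. NEO-OUT 10 combines the highest T and Mesp1 with the lowest Mixl1, at -1.86, and low Tbx6 and Msgn1.

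Most pairs of regulators varied together from embryo to embryo. After the group mean was taken off each log2 level, 37 of 45 pairs had a positive Pearson r over the 15 embryos, with a median of 0.41. These values are descriptions: all points share libraries, depth and tissue content. T and Mesp1 had r = 0.92, Mixl1 and Tbx6 0.86, and T and Eomes 0.78. Mesp1 and Msgn1 had the lowest, at -0.63. NEO-OUT 10 alone shaped several of them. Without it Mixl1 and Mesp1 went from 0.06 to 0.85, and T and Tbx6 from -0.04 to 0.72. The median of the 45 pairs went from 0.41 to 0.59. Leaving out the 2 embryos farthest from the median level of T lowered r for every pair with T. T and Eomes went from 0.78 to 0.47, T and Evx1 from 0.50 to 0.11, and T and Tbx6 from -0.04 to -0.38.

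Among 12617 other genes, the one most like T over the 15 embryos was Dnmt3b, the de novo DNA methyltransferase of the epiblast (r = 0.97, and 0.95 without NEO-OUT 10). The gene most like Mesp1 was Anxa11 (r = 0.95), followed by Lefty2, an inhibitor of Nodal (0.90). Mixl1 was most like Rasd1 (0.90) and Wnt3a (0.89), Eomes most like Akna (0.89) and Apoa1 (0.87), and Tbx6 most like Vash2 (0.93). Snai1 was most like Ccdc97 (0.94), Msgn1 most like Mphosph9 (0.90), Evx1 most like Grrp1 (0.88), Lhx1 most like Plekhm2 (0.88) and Mesp2 most like Ltbp4 (0.85). Since each is the best of 12617, the r is high by selection and carries no test.

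**Figure D5:**
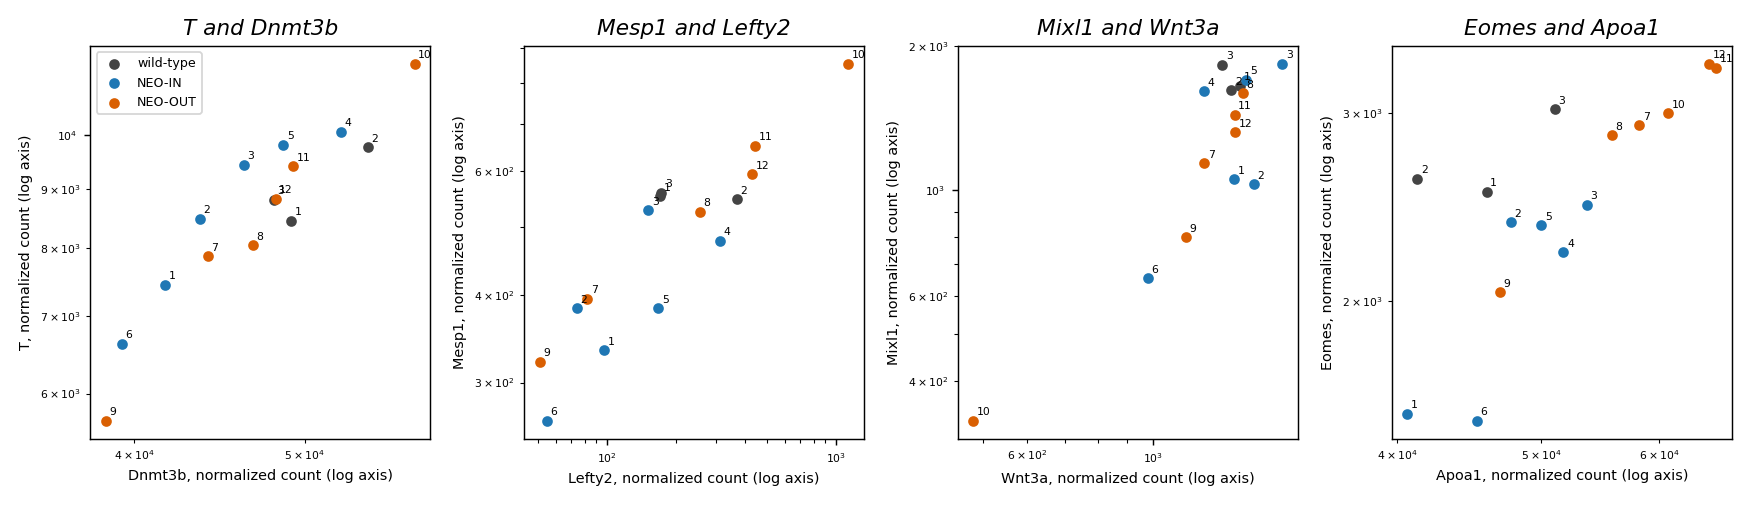
Normalized counts of T, Mesp1, Mixl1 and Eomes against those of Dnmt3b, Lefty2, Wnt3a and Apoa1, with each point 1 embryo. Dnmt3b is the gene most like T by r, and the other three are each the second most like, chosen for display after their values were seen.

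The signals that induce the streak were not called. Of 8 genes tested (Nodal, Wnt3, Wnt3a, Fgf4, Fgf8, Bmp4, Tdgf1 and Wnt8a), 0 were called in any of the 4 comparisons, with a median log2 fold change of -0.12 in Apela KO versus wild-type. Wnt8a was 1548 ± 54.0 (SD, n = 3) in wild-type against 1199 ± 331 (SD, n = 6) for NEO-OUT (log2 fold change -0.43, SE 0.21, limma BH-adjusted p = 0.234). NEO-OUT 10 had 579 of it, and without that embryo the log2 fold change was -0.23 (limma BH-adjusted p = 0.237). Wnt3 was 248.7 ± 44.7 (SD, n = 3) in wild-type against 189 ± 39.6 (SD, n = 6) for NEO-IN (log2 fold change -0.40, SE 0.21, limma BH-adjusted p = 0.326). Of 8 transducers and feedback genes of Nodal and Wnt, 0 were called against wild-type. In NEO-IN versus NEO-OUT, 2 of the 8 were called, both higher in NEO-IN, where 13.3% of all genes were called in either direction. They were the Wnt targets Sp5 (log2 fold change 0.29, limma BH-adjusted p = 0.0360) and Axin2 (0.18, limma BH-adjusted p = 0.0365). They kept the call in 15 and 14 of 24 alternatives. Both calls ended among the embryos without Y-linked reads (limma BH-adjusted p = 0.113 and 0.150).

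Of 9 adhesion and matrix genes of the epithelial to mesenchymal transition, 1 was called against wild-type, and it was called lower in both strains. Of all genes, 2.98% were called in NEO-IN and 6.35% in NEO-OUT. Fn1, fibronectin, on which mesoderm cells migrate, was 68268 ± 2901 (SD, n = 3) normalized counts in wild-type embryos, 58541 ± 2817 (SD, n = 6) for NEO-IN against 56836 ± 2817 (SD, n = 6) for NEO-OUT. All 12 null embryos (53986 to 63381) lay below all 3 wild-type embryos (65656 to 71390), as they did for 1.7% of all genes. The log2 fold change was -0.22 in NEO-IN (SE 0.05, limma BH-adjusted p = 0.0198) and -0.26 in NEO-OUT (SE 0.05, limma BH-adjusted p = 0.00442), a fall of 1.17-fold and 1.20-fold. The NEO-OUT call held in all 24 alternatives. The NEO-IN call ended without wild-type 2 (0.0725) or wild-type 3 (0.117) and in the embryos without Y-linked reads (0.103). It also ended with the trophoblast covariate (0.0506) and with the library number as a block in libraries 1 to 3 (0.0613). These are limma BH-adjusted p-values. The call in the mean of both strains ended without wild-type 3 (0.0680).

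Of 9 genes of the node, notochord and endoderm, 0 were called against wild-type. In the strain comparison, where 13.3% of all genes were called, Noto and Shh were higher and Sox17 lower in NEO-IN, and the other 6 did not pass. Noto, a homeobox gene of the node and notochord, was 503 ± 63.2 (SD, n = 6) for NEO-IN against 322 ± 48.9 (SD, n = 6) for NEO-OUT (log2 fold change 0.65, SE 0.11, limma BH-adjusted p = 0.000844). Shh, a signal secreted by the notochord, was higher by 0.99 (SE 0.21, limma BH-adjusted p = 0.00552). Sox17, a regulator of definitive endoderm, was lower by 0.35 on the log2 scale, at 2146 ± 206 (SD, n = 6) against 2730 ± 231 (SD, n = 6) (limma BH-adjusted p = 0.00337). T, which the notochord also uses, did not show this difference between the strains (0.03, SE 0.13, 95% interval -0.25 to 0.31, limma BH-adjusted p = 0.913).

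Of 11 paraxial genes downstream of Tbx6, Mesp2 and Msgn1, 2 were called in NEO-OUT versus wild-type, both lower, where 6.35% of all genes were called, and 0 in NEO-IN. They were Tcf15, a helix-loop-helix gene of paraxial mesoderm (log2 fold change -0.78, SE 0.18, limma BH-adjusted p = 0.0161), and the forkhead gene Foxc1 (-0.59, SE 0.13, limma BH-adjusted p = 0.0118). Without wild-type 1 their limma BH-adjusted p was 0.0829 and 0.0827, and that of Tcf15 was 0.0600 without wild-type 2. Both calls also ended with the trophoblast covariate (limma BH-adjusted p = 0.106 for Tcf15 and 0.0503 for Foxc1). The Tcf15 call ended among the embryos without Y-linked reads (limma BH-adjusted p = 0.0516). Between the strains, where 13.3% of all genes were called, 3 of the 11 were called higher in NEO-IN and 1, Ripply2, lower. Tcf15 and Foxc1 were higher by 0.68 (limma BH-adjusted p = 0.00558) and 0.42 (limma BH-adjusted p = 0.0132). Neither was called between the strains among the embryos without Y-linked reads (limma BH-adjusted p = 0.109 and 0.0514). Meox1 was higher by 1.89 (limma BH-adjusted p = 0.0480), a call kept in 6 of 24 alternatives. Tbx6 itself had a log2 fold change of 0.06 between the strains (SE 0.14, limma BH-adjusted p = 0.828). Of 12 cardiac and lateral genes, 1 was called in NEO-OUT versus wild-type, a share near the 6.35% of all genes, and 0 in NEO-IN versus wild-type. Gata4 was higher in NEO-OUT versus wild-type (log2 fold change 0.22, SE 0.05, limma BH-adjusted p = 0.0212), a call that ended without any 1 of the wild-type embryos (0.0644, 0.102 and 0.0623). Between the strains Gata4 was lower in NEO-IN (log2 fold change -0.28, limma BH-adjusted p = 0.000522) and Mef2c, a cardiac transcription factor gene, higher (0.39, limma BH-adjusted p = 0.0477), the latter in 7 of 24 alternatives. Gata4 is also transcribed in visceral endoderm. Of 9 visceral endoderm markers, 2 were called higher in NEO-OUT versus wild-type, where 6.35% of all genes were called. They were Apoa1 (log2 fold change 0.35, limma BH-adjusted p = 0.0468) and Ttr (0.46, limma BH-adjusted p = 0.0136). Both calls ended without wild-type 1 and without wild-type 2. The part of this tissue in the Gata4 difference was not tested. Of the 8 epiblast genes, Otx2 alone passed against wild-type. It was lower in NEO-OUT (log2 fold change -0.42, limma BH-adjusted p = 0.00243), in all 24 alternatives. It was also lower in the mean of both strains (-0.30, limma BH-adjusted p = 0.0197), in 20 of 24 alternatives. For NEO-IN against wild-type, 0 of the 8 passed. Between the strains only Otx2 passed, higher in NEO-IN (0.24, limma BH-adjusted p = 0.0119), in all 24 alternatives.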

How the data were processed

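Polyadenylated RNA of single whole embryos was sequenced from stranded libraries, per the labels' protocols. STAR, featureCounts, Picard, kallisto, DESeq2 and the build mm10 appear in the submitters' processing notes, without roles. The authors deposited signal values, that is, counts per gene over a size factor for each library, called normalized counts here. Dividing by each library's smallest step gave whole reads for 100% of values (within 0.01), with size factors of 0.8495 to 1.0735. Of counts from 1 to 20, 76.9% to 79.1% were even, so fragments may be fewer than reads. In 1 cell a stray letter was left out. GENCODE gave symbols for 98.57% of identifiers, and 18400 genes were at 0 in every library.

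limma 3.58.1 (limma-trend, R 4.3.3) was fitted to 16430 genes whose mean was at least 10, on log2(normalized count + 1), all 15 libraries in 1 fit with 3 groups; Apela KO is the mean of both strain effects. A fold change on this scale understates the change of low genes. Adjusted p-values are Benjamini-Hochberg over all genes tested, and a gene was called under 0.05. The fit was tested on simulated data. Count tests were edgeR 4.0.16 and DESeq2 1.42.0 on the recovered reads. Other fits used a pseudocount of 0.5 or 5, no filter, TMM scaling or only the groups compared, added a trophoblast covariate or left out 1 library each. A fit on the libraries without Y-linked reads (under 100 reads of 4 genes), and a fit on libraries 1 to 3 without the number as a term, were added after the data were seen.

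Members and gene lists were chosen with earlier results of these data known. Named genes are the members, Apela, called genes of each list or the 2 with the smallest p, and the 3 genes most like each member (within-group deviations, mean of at least 50); not each is described. Wild-type and NEO-IN libraries share the numbers 1 to 3, but same-numbered libraries had correlations of 0.05, 0.02 and 0.00 in their deviations, so the numbers were not taken as pairs. Figures used matplotlib 3.10.9 under Python 3.11.15.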

Additional observations from a re-analysis of the deposited data

Results flagged for a closer look

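Eomes in NEO-OUT 9 was 2036 normalized counts, far below the other 5 NEO-OUT embryos: the gap to the nearest of them was 0.634 of the range of the group. Snai1 in NEO-IN 1 was 1119 normalized counts, likewise below the other 5 NEO-IN embryos, with a gap of 0.631 of the range. With 20 groups of 6 examined, chance gives such a gap in about 1 in 20 groups. Both embryos held Y-linked reads. Eomes also differed between the null strains, with a log2 fold change of -0.49 in NEO-IN versus NEO-OUT (limma BH-adjusted p = 0.0215).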

How the results depend on the processing

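Of 980 fold changes of single regulators over the alternatives, 930 kept direction and side of the threshold, 42 changed sign without being called, 5 became called and 3, all of Eomes, lost the call. The cause of these changes was not tested. In Apela KO versus wild-type 465 genes were called; the number was 175 with the 12 null embryos as 1 group, 78 with the trophoblast covariate and 899 with DESeq2. In NEO-IN versus wild-type 489 became 102 with the covariate and 929 with DESeq2. In NEO-OUT versus wild-type 1043 became 308 and 1634. In NEO-IN versus NEO-OUT 2180 became 1218 without the embryos with Y-linked reads. Leaving out 1 library gave 153 to 477, 206 to 598, 383 to 1232 and 1673 to 2245 genes, with 0 to 0, 0 to 1, 0 to 1 and 0 to 2 regulators called. The lowest of the first 3 ranges came from leaving out a wild-type embryo.

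With the replicate block in NEO-IN versus wild-type, libraries 1 to 3, 487 genes and 1 regulator were called, Snai1 (log2 fold change -0.50, limma BH-adjusted p = 0.0240); the same libraries without the block gave 542 genes and 0 regulators. DESeq2 called 1 regulator there (Lhx1, -0.30), and leaving out NEO-OUT 9 called Snai1 (limma BH-adjusted p = 0.0342). With the trophoblast covariate 0 regulators were called in NEO-IN versus NEO-OUT.

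Values that changed sign with the trophoblast covariate were, in Apela KO versus wild-type, T 0.0745, Mixl1 0.113, Eomes 0.0151, Mesp2 0.186 and Evx1 0.00592; in NEO-IN versus wild-type, T 0.12, Mixl1 0.41, Mesp2 0.17, Evx1 0.0863 and Tbx6 0.0040; and in NEO-OUT versus wild-type, T 0.0292, Mesp1 0.0684 and Mesp2 0.20. Evx1 in NEO-IN was 0.0179 with the block and with the same libraries without it. Mesp1 in NEO-OUT was 0.00958 with edgeR and 0.0085 with DESeq2. Without the embryos with Y-linked reads, T was 0.0183 and Mesp1 0.0761 in NEO-OUT versus wild-type, and T was -0.0680 and Msgn1 0.0989 in NEO-IN versus NEO-OUT.

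Leaving out 1 library gave, in NEO-IN versus wild-type, T -0.12 to 0.0011 and Evx1 -0.0542 to 0.0269; in NEO-OUT versus wild-type, T -0.19 to 0.0091, Mesp1 -0.20 to 0.0813 and Mesp2 -0.52 to 0.0205; and in NEO-IN versus NEO-OUT, T -0.0817 to 0.12, Mesp2 -0.42 to 0.0495, Tbx6 -0.0815 to 0.12, Snai1 -0.18 to 0.0205 and Msgn1 -0.21 to 0.0474. Mesp2 had the lowest level of the 10, and 3 wild-type embryos limit every comparison with wild-type.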
